A study of Mus musculus with 6 samples.

Results

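The 10 genes described here drive, mark or restrain the cell cycle: the cyclins Ccnd1, Ccne2, Ccna2, Ccnb1 and Ccnb2, the kinase Cdk1, the chromosome proteins Top2a, Mki67 and Birc5, and the inhibitor Cdkn1a. They were taken by symbol, and each matched 1 of the 43346 gene IDs counted in every library. RNA sequencing gave reads per gene in the livers of C57BL6 mice aged 3 months, in 3 libraries labelled Control and 3 labelled DKO. DKO stands for loss of both β-catenin (gene Ctnnb1) and γ-catenin (gene Jup) in hepatocytes. The labels give no alleles for either group, and the driver of the deletion is not given in the sources used here. The replicates carry numbers but no animal names, and the spread that a p-value reads here is that of libraries, which may be technical.

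Cyclin D binds a kinase in early G1 and starts the release of E2F factors from RB proteins, cyclin E then opens S phase, and cyclins A and B with Cdk1 carry the cell through replication into mitosis. In adult liver nearly all hepatocytes rest outside the cycle until tissue is lost, so transcripts of the late phases are usually scarce, while Ccnd1, a gene long studied as a Wnt and β-catenin target, and the p53 target Cdkn1a can be read in resting cells. Many genes of G2 and mitosis carry CCAAT boxes and a cell cycle homology region (CHR) in their promoters, through which the DREAM complex keeps them silent in resting cells.

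The libraries labelled DKO stood apart from Control in depth and content, which touches every comparison below. Reads assigned to genes numbered 12320487 to 15869639 in Control, and DKO replicates 1, 2 and 3 had 309731, 525037 and 1491237. Rows naming no gene took 65.1% to 66.7% of all reads in Control and 95.3% to 97.3% in DKO. The 8 hepatocyte markers, Alb among them, summed to 92965 to 105403 CPM (reads scaled to a common gene-read total, here without TMM) in Control and to 1640, 44096 and 4070 CPM in the DKO libraries. Ctnnb1 had 2945, 2896 and 2650 reads in Control and 0, 52 and 65 in DKO. Jup had 339, 270 and 196 reads in Control and 6, 1 and 11 in DKO. On the log2 scale Ctnnb1 stood at -2.26 and Jup at -1.68, and neither passed edgeR's test (adjusted p = 0.171 and 0.0847). Both passed as lower with no filter (adjusted p = 0.00893 and 0.0391) and without DKO replicate 1 (0.0119 and 0.0434). Jup also passed with DESeq2 (0.0130) and after the background subtraction described below (0.0102). With so few DKO reads to subtract from, its fitted log2 fold change after subtraction, -10.1, is no measure of size. On a scale set by abundant liver genes both turned positive (0.89 and 3.90), and Jup was called higher (adjusted p = 0.0436). No source used here gives the deleted exons, and every direction below is one between libraries as labelled. In bulk tissue, fewer cells of a type and less RNA per cell cannot be told apart.

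In Control liver the inhibitor Cdkn1a and the G1 cyclin Ccnd1 were the most abundant of the 10, and the genes of mitosis were the scarcest. Levels between genes are given as RPKM, the unscaled CPM per kb of exon, for which the median over the 15864 protein-coding genes with a Control read was 1.62. Cdkn1a stood at 46.5, 17.0 and 15.9 in Control replicates 1, 2 and 3, a mean of 26.5 ± 17.4 (SD, n = 3). Ccnd1 stood at 19.4, 19.5 and 17.0, a mean of 18.6 ± 1.42. These genes ranked above 90.8% and 87.9% of those protein-coding genes. Their ranges overlapped, because Cdkn1a was high in replicate 1 only. Without that library the mean of Cdkn1a was 16.4, below that of Ccnd1 (18.2).

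A gap followed before the genes of S phase, G2 and mitosis. Ccne2, a partner of Cdk2 at the entry into S phase, had a level of 1.41 ± 0.42, and Ccna2, the cyclin of S phase and G2, had 0.981 ± 0.079, with overlapping ranges. Birc5, the survivin subunit of the chromosomal passenger complex, had 0.412 ± 0.015, and Cdk1, the mitotic kinase, 0.296 ± 0.020. The ranges of Ccna2, Birc5 and Cdk1 did not touch one another, and each of these genes was nearly level over the Control libraries. Ccnb2 (0.207 ± 0.123), Mki67 (0.120 ± 0.049), Top2a (0.0759 ± 0.0474) and Ccnb1 (0.0476 ± 0.0371) came last, and each overlapped its neighbour in the order. Ccnb1, the main cyclin of mitotic entry, rested on 6, 2 and 1 reads. A further limit holds for Ccnb1: 42.1% of the stretches of 50 bases in its longest transcript also lie in transcripts of 6 other genes, Ccnb1-ps among them, and HTSeq by default leaves out reads that align to several places. The corresponding share was 0% in Ccnb2 and Cdk1 and at most 1.52% in Birc5, Top2a and Mki67. In Birc5 that share lay in transcripts of 183 other genes.

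**Figure D1:**
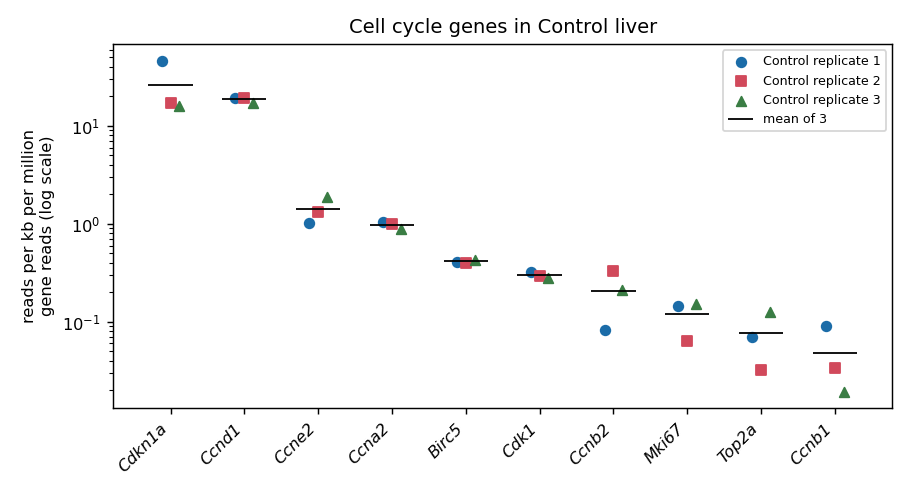
Levels of the 10 genes in the 3 Control libraries, in RPKM on a log axis, with the mean as a bar. Cdkn1a and Ccnd1 sit above 15 in every library, and the genes from Birc5 to Ccnb1 below 0.43.

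Positions and exons are those of GENCODE M21 on mm10, the build of the counts. Ccnd1 lies on chromosome 7 (144929931 to 144939925), Ccne2 on 4 (11191351 to 11204779), Ccna2 on 3 (36564865 to 36572150), Ccnb1 on 13 (100778650 to 100786570) and Ccnb2 on 9 (70407692 to 70421547). Cdk1 lies on chromosome 10 (69335146 to 69352938), Top2a on 11 (98992943 to 99024189), Mki67 on 7 (135689784 to 135716361), Birc5 on 11 (117849251 to 117855743) and Cdkn1a on 17 (29090976 to 29100727). Exons of an opposite-strand gene covered 23.4% of the exonic bases of Ccnd1, 17.4% of Ccne2 (gene Ints8), 12.5% of Ccna2 (gene Exosc9) and 7.68% of Cdkn1a. The strand setting of the counting is not given in the sources used here, so reads there cannot be assigned between partners. Top2a shared 1.35% of its exonic bases with Gm23451, a snoRNA gene on the same strand. Ccnb1, Ccnb2, Cdk1, Mki67 and Birc5 shared no exonic base with another gene.

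The promoters of Ccnb2, Top2a, Cdk1 and Mki67 are shown because reads of the first pair were many and reads of the second pair few in the DKO libraries, and all 4 hold CCAAT and CHR letters. The RefSeq promoter table (GRCm38.p6, windows of 300 bases, mostly upstream of each start) had entries for 7 of the 10 genes. Capitals mark CCAAT, the CHR letters TTTGAA and the E2F core (TTTCGCG, its variant with GG in the middle, written TTTGGCG, and that with CC, written TTTCCCG), searched on both strands, so that ATTGG and TTCAAA are CCAAT and CHR read on the other strand. Ccnb2 lies at chr9:70421505-70421804, Top2a at chr11:99024140-99024439, Cdk1 at chr10:69352863-69353162 and Mki67 at chr7:135716330-135716629, all on the minus strand and printed 5′ to 3′ in the direction of the gene.
Ccnb2: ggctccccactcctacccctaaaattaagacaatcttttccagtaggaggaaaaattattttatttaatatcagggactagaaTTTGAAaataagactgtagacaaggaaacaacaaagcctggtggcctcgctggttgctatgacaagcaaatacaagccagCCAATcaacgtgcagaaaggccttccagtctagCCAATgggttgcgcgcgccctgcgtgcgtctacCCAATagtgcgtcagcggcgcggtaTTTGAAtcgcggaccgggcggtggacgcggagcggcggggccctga
Top2a: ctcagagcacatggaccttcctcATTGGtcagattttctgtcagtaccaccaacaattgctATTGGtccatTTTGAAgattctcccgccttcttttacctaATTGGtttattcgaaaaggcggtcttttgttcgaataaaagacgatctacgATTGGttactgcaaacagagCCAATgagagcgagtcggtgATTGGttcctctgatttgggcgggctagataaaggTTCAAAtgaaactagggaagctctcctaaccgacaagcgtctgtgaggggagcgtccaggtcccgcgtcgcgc
Cdk1: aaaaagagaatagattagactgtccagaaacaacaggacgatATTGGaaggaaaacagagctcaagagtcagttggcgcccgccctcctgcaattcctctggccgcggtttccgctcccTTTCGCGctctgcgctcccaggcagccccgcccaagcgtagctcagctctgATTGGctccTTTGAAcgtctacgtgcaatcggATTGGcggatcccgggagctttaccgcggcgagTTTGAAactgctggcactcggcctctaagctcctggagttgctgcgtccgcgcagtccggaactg
Mki67: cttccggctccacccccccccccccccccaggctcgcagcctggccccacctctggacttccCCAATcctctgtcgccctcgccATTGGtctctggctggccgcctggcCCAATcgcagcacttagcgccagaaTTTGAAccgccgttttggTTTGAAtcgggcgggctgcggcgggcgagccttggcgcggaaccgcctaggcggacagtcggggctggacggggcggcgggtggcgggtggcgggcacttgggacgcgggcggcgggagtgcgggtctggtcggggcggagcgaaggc
Each of the 4 windows held at least 3 CCAAT and 2 CHR matches, and Top2a held 6 CCAAT matches. Only Cdk1 among them held an E2F core, and Birc5 held another. The Ccnb1 window held 2 CCAAT and 0 CHR matches, and both Cdkn1a windows held none of the 3 motifs. Of all 32851 promoters in the table, 37.4% held CCAAT, 17.9% held TTTGAA and 5.58% held an E2F core. A match is a description of letters, not of a bound site.

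Reads in the DKO libraries were then weighed against those of genes silent in Control. Silent genes were 8599 protein-coding genes with at most 10 reads over the 3 Control libraries, members left out. They averaged 1.34, 0.968 and 2.40 reads per kb of exon in DKO replicates 1, 2 and 3, and 0.0878 to 0.157 in the Control libraries, where low counts had chosen them. Scaled by GC content and exonic length, this density gave the background reads expected for each gene, and summed over all genes it came to 54.4%, 22.9% and 19.8% of the gene reads in DKO replicates 1, 2 and 3. The background was uneven. Summed over the DKO libraries 2931 silent genes had 0 reads, the median ratio of observed to expected reads was 0.213, the 90th percentile was 2.80 and the 99th was 11.9. By exact 95% Poisson intervals 17.4% of silent genes lay above their own expectation and 49.1% below, so these intervals, which cover counting error only, are narrower than the scatter of silent genes. The ratios of silent genes correlated between DKO libraries with Spearman's rho of 0.511 to 0.541, a description across genes that share annotated lengths and sequence.

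Against this background the 10 genes split. Summed over the DKO libraries 6 lay above the expectation by the Poisson interval, 3 below and 1 within. Ccnb2 stood out most, at 15.1 times the expected reads, more than 99.4% of silent genes reached. Birc5 (5.19 times), Ccnd1 (4.43), Cdkn1a (3.998), Top2a (3.57) and Ccne2 (3.09) lay above 91.1% to 95.5% of silent genes. Ccnb1 (0.851 times), Ccna2 (0.273), Cdk1 (0.103) and Mki67 (0.0369) had a higher ratio than 72.3%, 53.8%, 41.2% and 34.8% of silent genes. Without GC bins the expectation for Ccne2, which is in the lowest bin at 37.5% GC, rose from 5.82 to 16.5 reads, and its 18 reads no longer lay above it.

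**Figure D2:**
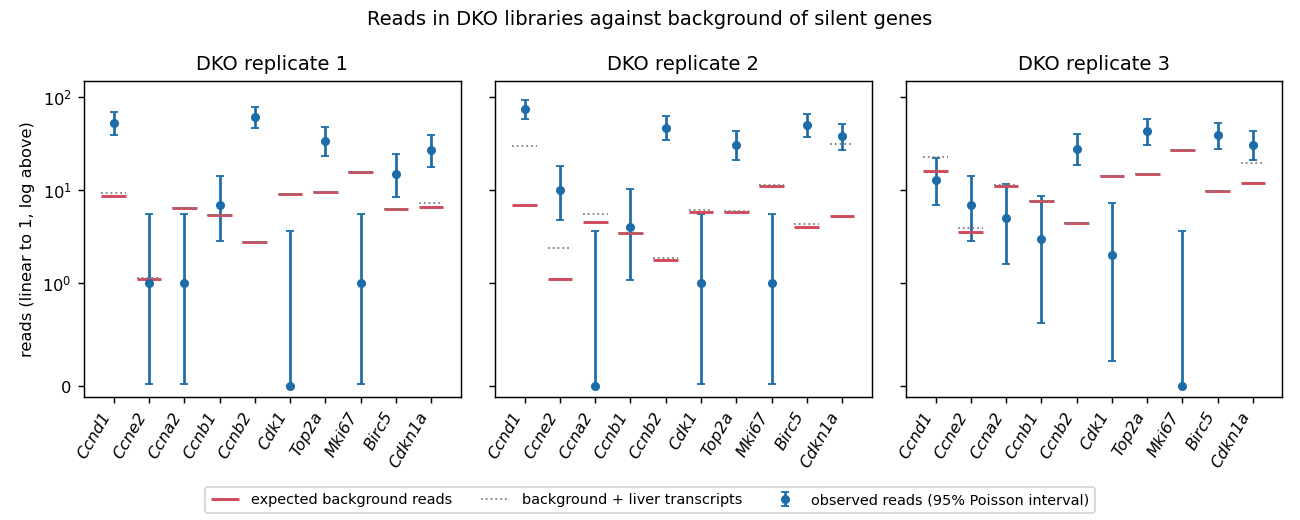
Reads of the 10 genes in each DKO library (points, with exact 95% Poisson intervals), beside the background reads expected from silent genes (red bars) and the sum of background and liver transcripts (dotted bars). Ccnb2, Top2a, Birc5 and Cdkn1a lie above the red bar in all 3 libraries, and Cdk1 and Mki67 below it.

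Ccnd1 was unequal among the DKO libraries. Control held 1449, 1280 and 985 Ccnd1 reads, and the DKO libraries, by replicate number, held 53, 75 and 13. Replicates 1 and 2 lay high and replicate 3 low. Background gave 8.79, 6.98 and 16.1 reads, and with the liver transcripts expected at each library's Control proportion 9.37, 30.3 and 22.9. That proportion was set by 163 abundant liver genes with more than 30000 Control reads. Ccnd1 therefore exceeded both sums in replicates 1 and 2, while in replicate 3 its interval (6.92 to 22.2) included the background alone. Scaled by TMM, edgeR's trimmed-mean factors, Ccnd1 had a mean of 109.9 CPM (SD 7.18) over the 3 Control libraries and of 70.2 CPM (SD 57.5) over the 3 DKO libraries. On the log2 scale the difference was -0.65 with an SE of 0.81 (edgeR adjusted p = 0.513). The groups overlapped. Without DKO replicate 3 the log2 fold change was 0.11 (adjusted p = 0.877). On the scale of the abundant liver genes Ccnd1 was called higher (4.9995, adjusted p = 0.0403), so its direction and its call depend on the scale.

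Ccne2 had 57, 65 and 80 reads in Control and 1, 10 and 7 in DKO. Only the 10 reads of replicate 2 exceeded the background of that library, 1.12, and also the 2.39 expected with liver transcripts. Its log2 fold change was 0.44 (SE 0.87, adjusted p = 0.688), and the groups overlapped. Without DKO replicate 2 it was -0.61 (adjusted p = 0.565). On the abundant-gene scale Ccne2 was called higher (3.85, adjusted p = 0.00279).

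Cdkn1a, which encodes the CDK inhibitor p21, had 2621, 844 and 694 reads in Control and 27, 38 and 31 in DKO. Each DKO count lay above the background of 6.63, 5.26 and 12.1 reads. Beside the background and liver transcripts together, 7.28, 31.4 and 19.7 reads, it lay above in replicates 1 and 3 and within the interval in replicate 2 (26.9 to 52.2). After TMM scaling Cdkn1a averaged 116.4 ± 72.5 CPM over the Control and 44.4 ± 18.1 over the DKO libraries (SD, n = 3). Every DKO library lay below every Control library, though the highest DKO value, 65.4, came near the lowest Control value, 72.1. The log2 fold change of -1.40 (SE 0.70) did not pass (adjusted p = 0.127). It passed with DESeq2 (adjusted p = 0.0320), with no count filter (0.0473) and without DKO replicate 2 (0.0479), and was -0.67 without Control replicate 1 (adjusted p = 0.457).

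Among the genes of S phase, G2 and mitosis, Ccnb2, Top2a and Birc5 had more reads in several DKO libraries than in any Control library, despite the far smaller DKO totals. Ccnb2, the B-type cyclin at the Golgi, had 2, 7 and 4 reads in Control and 61, 47 and 28 in DKO, where background gave 2.80, 1.80 and 4.42. Top2a, the topoisomerase that untangles chromosomes, had 10, 4 and 14 reads in Control and 34, 31 and 43 in DKO, where background gave 9.59, 5.81 and 14.9. Birc5 had 22, 19 and 18 reads in Control and 15, 50 and 39 in DKO, where background gave 6.22, 3.99 and 9.81. In these 3 genes every DKO count lay above its background by the Poisson interval, and liver transcripts added at most 0.37 expected reads to any of them.

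Ccna2, Cdk1 and Mki67 had almost no reads in the DKO libraries. Ccna2 had 68, 57 and 45 reads in Control and 1, 0 and 5 in DKO, against a background of 6.43, 4.53 and 11.0. Cdk1 had 25, 20 and 17 reads in Control and 0, 1 and 2 in DKO, against 9.02, 5.79 and 14.2. Mki67, whose protein Ki-67 coats mitotic chromosomes, had 23, 9 and 19 reads in Control and 1, 1 and 0 in DKO, against 15.8, 11.2 and 27.1. Cdk1 and Mki67 were below the background in all 3 libraries and Ccna2 in replicates 1 and 2. Liver transcripts were expected to add at most 1.07 reads to any of these genes. A fall or a small rise of their liver level was therefore not detectable at this depth. Ccnb1 had 6, 2 and 1 reads in Control and 7, 4 and 3 in DKO, within the interval of the background of 5.43, 3.43 and 7.59.

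The make-up of these 7 genes within each library does not depend on scaling. They summed to 156, 118 and 118 reads in the Control libraries and to 119, 134 and 120 in the DKO libraries, where background gave 55.3, 36.5 and 89.1. Ccna2, Cdk1 and Mki67 supplied 74.4% (95% Wilson interval 67.0 to 80.6), 72.9% (64.2 to 80.1) and 68.6% (59.8 to 76.3) of the sum in Control. In DKO they supplied 1.68% (0.462 to 5.92), 1.49% (0.41 to 5.28) and 5.83% (2.85 to 11.6). Ccnb2, Top2a and Birc5 supplied 21.8%, 25.4% and 30.5% in Control and 92.4%, 95.5% and 91.7% in DKO. Both trios were picked after their values were seen, so these shares are a description without a test.

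Over all genes, 4871 of 15561 tested genes (31.3%) were called higher in DKO and 1992 (12.8%) lower, at an adjusted p under 0.05 in edgeR's quasi-likelihood test. The split was 5045 to 3577 with DESeq2's size factors and 9718 to 85 on the abundant-gene scale. Of the 9 members that passed the count filter, Ccnb1, Ccnb2, Top2a and Birc5 were called higher and 0 lower. Their log2 fold changes were 4.50 (SE 0.82, adjusted p = 0.00178) for Ccnb1, 7.23 (SE 0.86, adjusted p = 0.000682) for Ccnb2, 5.77 (SE 0.76, adjusted p = 0.000717) for Top2a and 4.78 (SE 0.76, adjusted p = 0.00101) for Birc5. These calls cannot serve as evidence of a rise of these genes in particular. Ccnb1, Ccnb2 and Top2a reached the filter's 1.45 CPM in no Control library, and Birc5 in 1. Of the 3595 tested genes that no Control library carried past the filter, 99.6% were called higher. Cdk1 was left out by the filter, with 1.38 to 1.58 unscaled CPM in Control, and with no filter its log2 fold change was -0.92 (adjusted p = 0.642). Ccna2 was tested and not called, at -1.02 on the log2 scale (adjusted p = 0.366), with -2.39 without DKO replicate 3 and -0.71 without DKO replicate 2. Neither was Mki67, at -0.75 (adjusted p = 0.564).

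By TMM-scaled CPM without a test, 4 of the 9 members lay wholly above Control and 1, Cdkn1a, wholly below, against 34% and 36.4% of all tested genes. After the expected background was subtracted from the DKO counts, 7 members remained testable. Ccnb2, Top2a and Birc5 were called higher (by 7.54, 5.75 and 5.07 on the log2 scale, with edgeR adjusted p = 0.0102, 0.0102 and 0.0131) and Ccna2 lower (adjusted p = 0.0103), against 17.3% and 20.8% of all genes tested so. The limit of the filter holds here too: Ccnb2, Top2a and Birc5 were carried past it by 0 Control libraries, and of the 1803 genes so tested 99.6% were called higher. Ccna2 had fewer reads than the expected background in every DKO library, so the floor of the subtraction set it to 0 in each. Its lower call follows from that floor and is no evidence of a fall, and its fitted fold change is no measure of size. Ccnb1 was left with 2, 1 and 0 DKO reads and dropped out of the test. The subtraction uses an average density that silent genes scattered widely around, as given above. On the abundant-gene scale, which moved the median over all tested genes on the log2 scale from -0.08 to 4.68, all 9 members were positive, the lowest being Mki67 at 2.31. All of them but Mki67 and Cdkn1a were called higher, against 62.5% of all tested genes higher and 0.546% lower. Ccna2 was thus called higher on that scale (2.91, adjusted p = 0.0459), while its lower call after subtraction came from the floor at 0.

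**Figure D3:**
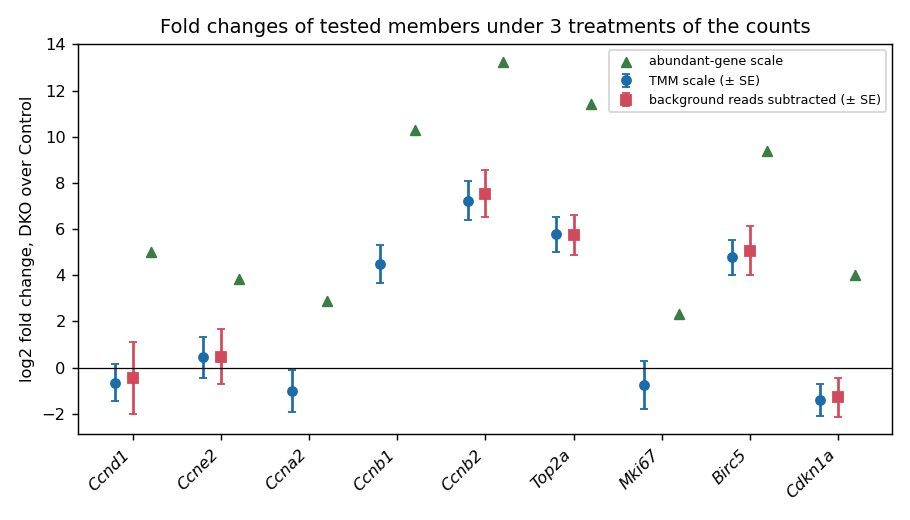
Log2 fold changes of the 9 tested members, DKO over Control, on the TMM scale and after background subtraction (each with its SE), and on the abundant-gene scale. Ccnb1, Ccna2 and Mki67 have no point after subtraction, Ccna2 because all its DKO counts became 0. Ccnb2, Top2a and Birc5 lie above 4 throughout, while Ccnd1, Ccna2, Mki67 and Cdkn1a change sign with the scale.

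The wider list of 36 mitosis genes also held members far above and far below the background. Of 29 tested, 20 were called higher and 1 lower, with a median log2 fold change of 4.67 against -0.08 over all tested genes. However, 18 of the 29 were carried past the filter by DKO libraries alone, and 17 of these made up most of the calls. Among the other 11, 3 were higher and 1 lower, against 10.8% and 16.6% of all genes with a Control library past the filter. Against the background of silent genes 17 of the 36 lay above, 7 within and 12 below, where silent genes gave 17.4% above and 49.1% below. Listed genes with at most 10 Control reads are themselves among the silent genes, and this expectation leaves out liver transcripts. Hmmr, a spindle protein, had 5, 5 and 0 reads in Control and 29, 29 and 42 in DKO, 5.48 times the background. Kif11, the kinesin that separates spindle poles, had 10, 2 and 4 reads in Control and 26, 21 and 18 in DKO, 2.59 times the background. Nuf2, a kinetochore protein, had 0, 1 and 0 reads in Control and 6, 20 and 24 in DKO, 2.35 times the background. At the other end, Cdc20, which activates the anaphase-promoting complex, and the centrosome kinase Nek2 had 28 and 94 reads over the Control libraries and 0 in DKO, where background gave 12.3 and 30.9. Nek2 was the gene called lower (adjusted p = 0.0285). Cdc20 and Nek2 were named after their values were seen. After background subtraction 8 of 16 tested genes of the list were higher and 4 lower. Without DKO replicate 3 the list had 15 higher genes, and without replicate 1 it had 24.

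**Figure D4:**
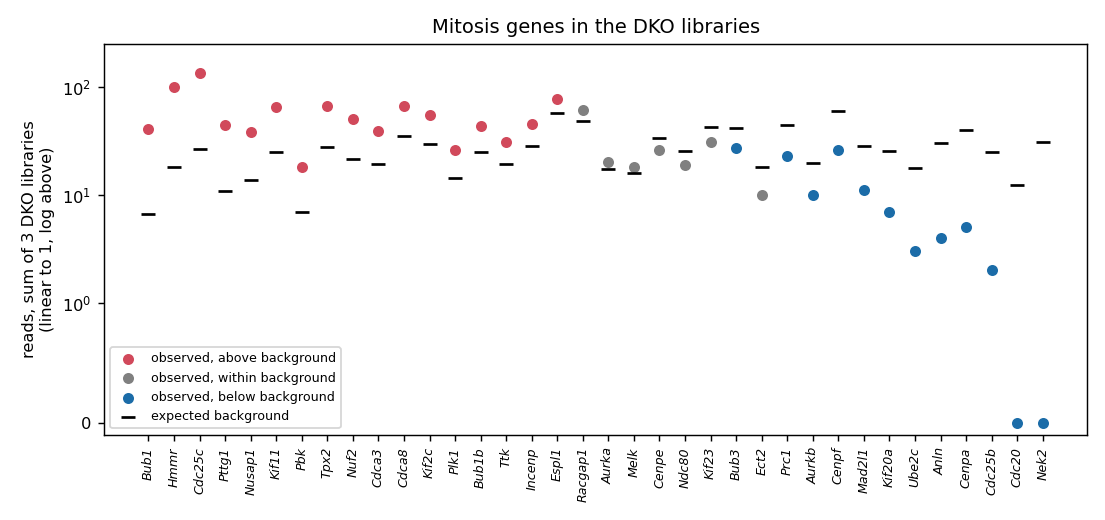
Reads of the 36 mitosis genes summed over the 3 DKO libraries (points), ordered by their ratio to the expected background reads (black bars), on an axis that is linear to 1 and logarithmic above. Points run from 135 reads for Cdc25c to 0 for Cdc20 and Nek2, although the expected background lies between 6.71 and 60.2 reads throughout.

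In each list that follows, the counts stand against 31.3% of all tested genes called higher and 12.8% lower, and on the abundant-gene scale against 62.5% and 0.546%. Outside the DNA replication list and the E2F, RB and DREAM list, every listed gene tested had a Control library past the filter. Their like shares are 10.8% higher and 16.6% lower, those of all genes with a Control library past it. Of 27 DNA replication genes tested 6 were called higher and 2 lower, with a median of 0.20, and on the abundant-gene scale 20 were higher and 0 lower. Pole, the leading-strand polymerase, rose from 23, 11 and 16 reads to 34, 34 and 79 (log2 fold change 5.39, adjusted p = 0.00069). Orc1, a subunit of the origin recognition complex, rose from 0, 3 and 1 reads to 7, 10 and 56 (7.68, adjusted p = 0.00106), and Uhrf1, which keeps DNA methylation after replication, from 8, 1 and 0 to 16, 14 and 17 (6.28, adjusted p = 0.00154). Orc1 and Uhrf1 reached the filter through DKO libraries. Among the Control libraries Pole passed the filter's CPM in replicate 1 only, so its test too depended on DKO reads. After background subtraction the list had 4 higher and 6 lower of 23. Counts of lower genes were 0 without any 1 of the Control libraries and 4 without DKO replicate 1 or 2.

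Of 10 D and E cyclins and their kinases, which were tested through Control reads too, 3 were called higher and 1 lower. Among all genes with a Control library past the filter the shares were 10.8% and 16.6%. On the abundant-gene scale 9 were higher and 0 lower. Ccnd2 had 222, 67 and 77 reads in Control and 61, 26 and 154 in DKO, a log2 fold change of 3.22 (adjusted p = 0.00623). Ccnd3 had 403, 360 and 297 reads and then 92, 71 and 149, a log2 fold change of 2.08 (adjusted p = 0.0188). Cdk4, the kinase partner of the D cyclins, fell from 2646, 2341 and 1881 reads to 10, 28 and 14, a log2 fold change of -3.02 (adjusted p = 0.0146) that was not called lower on the abundant-gene scale. After background subtraction Ccnd2 (adjusted p = 0.0385) and Ccnd3 (0.0325) were still called and Cdk4 was not (0.106). The list's median was 1.17, and -0.28 after subtraction. Without any 1 Control library 1 gene was called higher, and without DKO replicate 2 there were 5.

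The E2F, RB and DREAM factors had 4 of 18 tested genes higher and 0 lower, with a median of -0.14, and on the abundant-gene scale 15 higher and 0 lower, with a median of 5.43. E2f2 rose from 8, 6 and 4 reads to 18, 12 and 44 (log2 fold change 5.80, adjusted p = 0.000719) and E2f7 from 11, 4 and 2 to 12, 4 and 16 (4.73, adjusted p = 0.00173). Lin9, a DREAM subunit, had 40, 50 and 48 reads in Control and 30, 38 and 50 in DKO, and was called higher only relative to library size (3.64, adjusted p = 0.00115). Of the 4, 3 were carried past the filter by DKO libraries alone. Without DKO replicate 1 the list had 6 higher genes, and after subtraction it had 2 higher and 3 lower of 15. Foxm1, the factor that activates mitosis genes, had 12, 2 and 9 reads in Control and 0 in every DKO library and was not tested.

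Of 6 other CDK inhibitors 3 were tested, and 0 were called on the TMM scale and all 3 higher on the abundant-gene scale. Cdkn1b, which encodes p27, had 336, 263 and 212 reads in Control and 31, 18 and 32 in DKO (log2 fold change 0.55, adjusted p = 0.388). Cdkn2c stood at 1.00 and Cdkn2d at -0.05 on the log2 scale (adjusted p = 0.264 and 0.956). Without DKO replicate 3, 1 of the list was called higher, and after background subtraction Cdkn2d was called lower (adjusted p = 0.0236). Cdkn2d had 2, 2 and 3 DKO reads before subtraction, so its fitted log2 fold change of -7.24 after it is no measure of size. Of the anaphase-promoting complex 1 of 15 tested genes was called, Cdc27, with 497, 367 and 325 reads in Control and 107, 59 and 120 in DKO (log2 fold change 1.81, adjusted p = 0.0312), and its next genes Anapc13 and Anapc5 were not (adjusted p = 0.0690 and 0.0909). No gene of the complex was called without any 1 Control library, 7 were lower without DKO replicate 2, and 8 were higher and 0 lower on the abundant-gene scale. Of the other apoptosis inhibitors of Birc5's family 1 of 5 tested was called lower, Birc2, with 426, 426 and 350 reads in Control and 9, 1 and 4 in DKO (log2 fold change -2.58, adjusted p = 0.0182). The list had 0 lower genes without any 1 Control library, without DKO replicate 3, and on the abundant-gene scale, where 3 were higher. Xiap and Birc3 of that family were not called (adjusted p = 0.0522 and 0.372).

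Markers of other cell types in liver were looked at beside these genes. The 10 lymphocyte markers summed to 4.79 to 8.25 unscaled CPM in Control and 81.1 to 158.2 in DKO, with 49, 45 and 121 DKO reads against a background of 46.7, 31.8 and 78.5. Nkg7 was at 0 in every DKO library, while Cd3e had 32, 31 and 75 reads. The 7 neutrophil markers summed to 0.43 to 1.58 CPM in Control and 19.4 to 32.4 in DKO, where their 6, 17 and 29 reads compared with 19.1, 13.9 and 34.9 expected. The 9 erythroid markers summed to 297.5 to 312.9 CPM in Control and to 203.4, 624.7 and 199.8 in the DKO libraries. Only DKO replicate 2 lay above Control, and Epor was at 0 in all 3 DKO libraries. The 6 cholangiocyte markers summed to 62.1 to 82.9 CPM in Control and 326.1, 192.4 and 140.8 in DKO, with 101, 101 and 210 DKO reads against 38.9, 27.6 and 67.0 expected. Sox9 supplied 78, 67 and 126 of these reads, while Krt19 had 0, 1 and 8. Endothelial markers summed to 839.4, 268.6 and 177.7 CPM in DKO against 198.2 to 375.1 in Control, and stellate markers to 726.4, 199.99 and 258.8 against 188.8 to 323.3. Kupffer cell markers summed to 106.5, 123.8 and 76.4 CPM in DKO against 181.0 to 242.2. Their 33, 65 and 114 DKO reads compared with a background of 38.7, 29.0 and 68.3, so replicate 1 did not exceed it. The cholangiocyte sum was thus higher in every DKO library. Spp1 supplied most of the Control sum, 1117, 810 and 745 reads, but only 9, 24 and 13 of the DKO reads. The endothelial and stellate sums were high in DKO replicate 1, at 260 and 225 reads against a background of 86.6 and 96.7. Pecam1 supplied 182 of those endothelial reads, while Stab1, Clec4g and Oit3 had 0. The single marker genes given here were named after their values were seen. The part of these cell types in the member counts was not tested.

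Within Control, replicate 1 was set apart by Cdkn1a and by other genes of the p53 pathway, which answers DNA damage and stress by halting the cycle. Cdkn1a stood at 165.2 unscaled CPM in replicate 1 and at 60.5 and 56.3 in replicates 2 and 3, a ratio of 2.83 to their mean. Only 0.257% of 9343 genes with at least 5 CPM in Control had a ratio as high. Of the 19 listed p53 genes 18 were highest in replicate 1, and their median ratio was 1.69, where 45.7% of those 9343 genes were highest in that library with a median ratio of 1.04. Plk2, a stress-induced kinase, had 95.3 CPM in replicate 1 and 33.0 and 33.4 in the others. Mdm2, which degrades p53, had 103.1, 64.3 and 57.5 CPM. Gadd45a, a growth arrest gene, had 16.9, 5.73 and 6.82 CPM. Sesn1 was the exception, at 13.61, 13.62 and 11.9 CPM. Plk2, Mdm2, Gadd45a and Sesn1 were chosen after their values were seen. Endothelial markers summed to 375.1 CPM in replicate 1 and 198.2 in each of the others, stellate markers to 323.3, 188.8 and 218.7, and Kupffer cell markers to 242.2, 181.0 and 181.7. The part of other cell types in this pattern was not tested, and with 1 library there is no test of it.

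**Figure D5:**
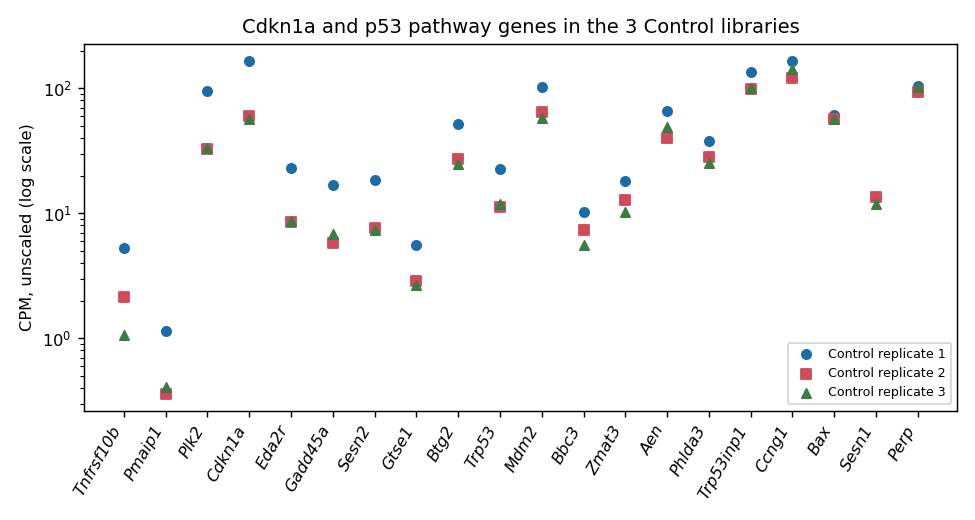
Unscaled CPM of Cdkn1a and 19 p53 pathway genes in the 3 Control libraries on a log axis, ordered by the ratio of replicate 1 to the mean of the others. The points of replicate 1 lie highest for all genes shown except Sesn1.

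Between the groups 1 of 18 tested p53 genes was called higher and 3 lower, with a median of -1.16. All 18 had a Control library past the filter, and over all such genes 10.8% were higher and 16.6% lower. On the abundant-gene scale 9 were higher and 0 lower, with a median of 3.60. Trp53 itself had 361, 157 and 145 reads in Control and 50, 49 and 39 in DKO (log2 fold change 1.73, adjusted p = 0.0350). The exonuclease gene Aen had 1042, 561 and 599 reads in Control and 0, 8 and 13 in DKO (-2.80, adjusted p = 0.0333), and Phlda3, an inhibitor of AKT signalling, 606, 391 and 310 and then 1, 8 and 8 (-2.30, adjusted p = 0.0365). After background subtraction Trp53 and Phlda3 were no longer called (adjusted p = 0.0894 and 0.175). Without any 1 of the 3 Control libraries 0 of these genes were called in either direction, without DKO replicate 1 there were 3 higher and 5 lower, and without DKO replicate 2 there were 0 higher and 7 lower.

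Genes whose levels followed the members most closely over the 6 libraries were sought by Pearson's r of log2 CPM among 12104 to 12106 genes with at least 10 reads in each Control library. For the sum of the 7 S, G2 and M genes these were Gm47283, Katnal1, Tcf4, Slf2 and Pias4 (r of 0.998 to 0.999). For Ccnd1 they were Slc25a46, Med24, Wdr92, Nmt1 and Ptpn1 (0.994 to 0.999), and for Cdkn1a they were Atrn, Sh3pxd2a, Inka2, 0610009E02Rik and Ddc (0.940 to 0.986). All points share the gap between the groups and its depth, and with 6 libraries such values are a description only.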

How the data were processed

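Liver RNA from 3 Control and 3 DKO samples was sequenced, and the authors deposited raw counts for each Ensembl gene. The submitters' processing notes name STAR, HTSeq and the build mm10. No source used here gives versions, annotation release or strand setting. Rows that name no gene (65.1% to 97.3% of reads) stayed out of library sizes and tests. Symbols were paired for 42462 of 43346 IDs. Lengths, GC content and positions came from GENCODE M21.

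Counts were tested across all genes with edgeR 4.0.16 in R 4.3.3 (robust quasi-likelihood, TMM, filterByExpr, Benjamini-Hochberg, two-sided). SE is the absolute log2 fold change over the root of F. The script was tested on simulated data. Alternatives were DESeq2 1.42.0, limma-voom 3.58.1, other scalings and filters, background subtraction, leaving out single libraries and a block for replicate number. Named genes were the members, Ctnnb1, Jup and Alb, up to 3 genes per pathway list by smallest adjusted p, and the 5 genes most like each member profile, with a pseudocount of 0.5 CPM. Foxm1, Cdc25c and genes that overlap or share sequence with members were also named, and other exceptions are marked in the text. Background reads used 10 GC bins. The members and lists were chosen with earlier results of these data known. Reads carry no molecular identifiers, so intervals cover counting error only. Values of some marker genes are not reported here.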

Additional observations from a re-analysis of the deposited data

Results flagged for a closer look

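Reads in rows that name no gene, which no comparison uses, took 96.0% ± 1.15 of all reads in the DKO libraries and 65.9% ± 0.82 in Control (SD, n = 3 each), so that this signal outside the gene counts exceeded the level in the control samples.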

How the results depend on the processing

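The calls of Ccnb1, Ccnb2, Top2a and Birc5 passed in every alternative that tested them, which is no sign of stability. The filter let Ccnb1, Ccnb2 and Top2a through by DKO libraries alone, and Birc5 by the DKO libraries with 1 Control library. With no filter, 11477 of 30209 tested genes were called higher. The number of called members was 4 or 5 in all settings except the abundant-gene scale, where 7 were called, but the set changed. After background subtraction 3 were higher and Ccna2 lower, with Ccnb1 untested. The lower call of Ccna2 came from the floor, which set all its DKO counts to 0. With DESeq2, with no filter and without DKO replicate 2 the added call was Cdkn1a, lower. The abundant-gene scale turned Ccnd1 to 4.9995, Ccna2 to 2.91, Mki67 to 2.31, Cdkn1a to 3.996, Ctnnb1 to 0.89 and Jup to 3.90 on the log2 scale. With no normalization factors Ccnd1 was 0.34, and with no filter Ccne2 was -0.021 and 16127 genes were called. Leaving out each library in turn gave -1.60 to 0.11 for Ccnd1. It gave -0.61 to 0.82 for Ccne2, -1.49 to 0.30 for Mki67 and -2.39 to -0.71 for Ccna2, which were tested only where a DKO library was left out. With a replicate block 6322 genes were called, and no member's call changed. Same-numbered libraries correlated at 0.12, 0.07 and -0.02 in their deviations. Replicates 1 and 2 matched their own number best and replicate 3 did not, which at this depth cannot decide whether same-numbered samples were paired. Without DKO replicate 2 and with DESeq2 the lower calls were 4492 and 4776 in place of 1992. They were 3685 without DKO replicate 1 and 567 to 601 without a Control library. Background subtraction gave 2310 higher and 2779 lower. Depth limits the DKO values throughout. Causes were not tested.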
